A study of Homo sapiens with 8 samples.

Results

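The comparison described here sets 2 kinds of control cell side by side: BJ cells, an established line of human skin fibroblasts, labelled PCDNA (a control for plasmid overexpression, named after a mammalian expression vector), and BJ cells labelled ASO-NC (a negative control for antisense oligonucleotides, short nucleic acids that bind and lower a chosen RNA). Each group has 2 libraries, so the comparison uses 4 of the 8 libraries of the series, chosen by their labels and not by any measured value. The other 4 are 2 libraries labelled OE-PURPL, in which PURPL was overexpressed, and 2 labelled ASO-PURPL, in which it was targeted by antisense oligonucleotides. PURPL is a long noncoding RNA that is induced by p53 and was first described as holding p53 levels down. All 8 are mRNA sequencing libraries made with a SMARTer mRNA-Seq kit from TriZol-extracted total RNA of cells grown in serum-containing DMEM. The labels give no delivery agent, dose or harvest time, and none of the 8 libraries is labelled as untreated. The nucleic acid, the way it was delivered and the culture of each arm therefore cannot be told apart, and a difference cannot be assigned to the PCDNA or to the ASO-NC cells. Nothing in the labels ties a library to its own culture, so the p-values reflect variation among the libraries as sequenced, and that variation may be only technical.

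Cells carry sensors for foreign nucleic acid. When RNA sensors such as RIG-I and MDA5, or the DNA sensor cGAS with its adaptor STING, are engaged, kinases activate interferon regulatory factors and NF-kB, and the cell secretes type I interferon. Interferon binds its receptor on the same and neighbouring cells, Janus kinases phosphorylate STAT proteins, and these, with IRF9, switch on a large set of interferon-stimulated genes whose products block viral replication. Fibroblasts are classic producers of interferon beta.

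The values are FPKM, that is fragments per kilobase of transcript, scaled to the mapped fragments of each library, as deposited. Replicate 2 of both groups stands in 1 deposited table, whereas replicate 1 of PCDNA and replicate 1 of ASO-NC stand in 2 separate tables that may have been normalized apart. Each difference is PCDNA minus ASO-NC on the log2(FPKM + 1) scale, averaged over replicate 1 across tables and replicate 2 inside its table, and the test, which spans tables, is limma over the 4 libraries with Benjamini-Hochberg adjustment. A gene passed at an adjusted p under 0.05. Differences on this scale understate the fold change of genes with low FPKM.

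The filter kept 13915 genes whose FPKM averaged 1 or more across the 4 libraries, and of these 1089 (7.83%) were higher and 646 (4.64%) lower in PCDNA, or 1735 (12.5%) in all. The counts of higher and lower genes were 255 and 75 without PCDNA replicate 1, 259 and 62 without PCDNA replicate 2, 1979 and 1147 without ASO-NC replicate 1, and 2290 and 2893 without ASO-NC replicate 2. Higher genes made up 62.8% of the calls, but 43.5% after the libraries were centred on their medians and 52.8% after quantile normalization. Centring moved the median difference of all genes by -0.125 on the log2 scale. By size alone, 688 genes (4.94%) were at least 1 log2 unit higher in PCDNA in both replicates and 401 (2.88%) at least 1 lower. The 2 PCDNA libraries differed from each other by a median of 0.151 log2 units per gene, and the 2 ASO-NC libraries by 0.295. A fit without 1 library takes the spread within groups from the remaining pair alone. Counts fell without a PCDNA library, where that was the ASO-NC pair, and rose without an ASO-NC library. Such counts, here and below, depend on that spread and do not show that a difference rests on 1 library. The ASO-NC replicates stood apart for some very abundant or structured RNAs: the nuclear RNA NEAT1 had 579 and 546 FPKM in PCDNA cells against 619 and 137 FPKM in ASO-NC, and the row named 5_8S_rRNA was listed at 604 FPKM in ASO-NC replicate 1 and at 0.01 or 0 in the other 3 control libraries. Across 12694 genes, the replicate 2 difference had a Spearman correlation of -0.39 with the GC content of the transcript, and the replicate 1 difference of -0.22; genes are not independent replicates. Removing a trend on length and GC content left 996 higher and 451 lower genes.

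**Figure D1:**
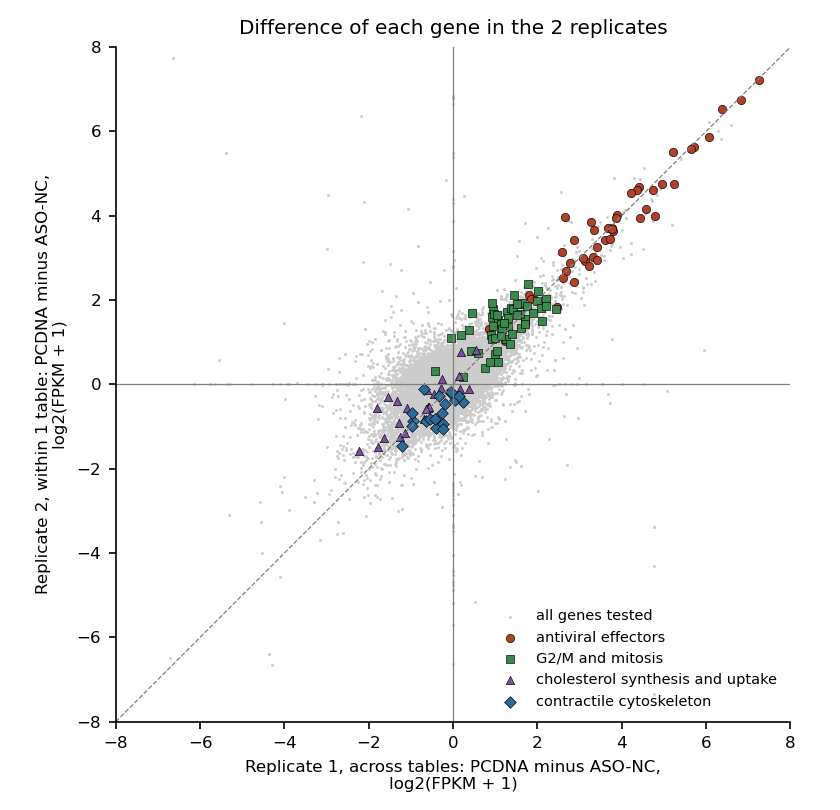
Each point is a gene. The x axis shows the replicate 1 difference across tables and the y axis the replicate 2 difference within 1 table, both as PCDNA minus ASO-NC on the log2(FPKM + 1) scale, with the dashed line marking equal values and 4 genes lying beyond the axes. The 46 antiviral effectors all lie in the upper right quadrant, with G2/M genes nearer the centre and most cholesterol synthesis and contractile genes below 0.

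The largest and most uniform difference was in antiviral effectors, the proteins through which interferon limits viruses. All 46 members of the list were tested and all 46 were higher in PCDNA by limma, beside 7.83% of all genes, with a median difference of 3.57 log2 units against 0.00196 over all genes tested. Together these genes took up 3.65% and 3.53% of all FPKM in the PCDNA libraries, against 0.359% and 0.468% in the ASO-NC libraries. The median was 3.63 in replicate 1, across tables, and 3.67 in replicate 2, inside 1 table. In bulk libraries, fewer cells expressing a gene and less RNA per cell cannot be told apart. The differences ranged from 1.08 for TRIM25 to 7.23 for RSAD2. The count was 41 without either PCDNA library and 46 without either ASO-NC library.

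RSAD2 (viperin), an enzyme that makes a chain-terminating nucleotide, had 861 and 906 FPKM in PCDNA cells, against 4.67 and 5.14 FPKM in ASO-NC. It was 184-fold higher in replicate 1 and 176-fold higher in replicate 2 (log2 difference 7.23 ± 0.16 SE, limma adjusted p = 0.000465). The spread within each group was far smaller than the gap between them, and no ASO-NC library came near a PCDNA library. IFIT1, which binds viral RNA that lacks host cap methylation, had 414 and 438 FPKM in PCDNA cells against 5.24 and 6.51 FPKM in ASO-NC. Its neighbours IFIT2, at 788 and 805 FPKM in PCDNA versus 5.95 and 6.58 FPKM in ASO-NC, and IFIT3, at 1023 and 1086 FPKM in PCDNA versus 18.5 and 20.8 FPKM in ASO-NC, were higher in PCDNA as well. IFIT5, of the same family, had the smallest difference among these at 1.96 log2 units, with 47.3 and 47.4 FPKM in PCDNA cells against 12.9 and 10.1 FPKM in ASO-NC.

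MX1, a dynamin-like GTPase that traps viral nucleocapsids, had 584 and 581 FPKM in PCDNA cells against 23.6 and 31.4 FPKM in ASO-NC. OAS1, which makes the oligoadenylates that activate RNase L, had 377 and 372 FPKM in PCDNA cells against 6.54 and 6.85 FPKM in ASO-NC. OASL, a catalytically inactive relative that assists RIG-I, had 315 and 290 FPKM in PCDNA cells against 2.78 and 2.15 FPKM in ASO-NC. All 3 passed with no overlap between groups, beside 33.6% of all genes whose PCDNA libraries both lay higher. OASL stood among the 3 largest differences of the list. ISG15, a ubiquitin-like modifier, was at 3252 and 2975 FPKM in PCDNA versus 116 and 187 FPKM in ASO-NC (log2 difference 4.39 ± 0.26 SE, limma adjusted p = 0.00175). IFI6, a small membrane protein, had 2783 and 3058 FPKM in PCDNA cells against 721 and 765 FPKM in ASO-NC, so an abundant gene of the ASO-NC cells had a smaller difference of 1.97 log2 units. BST2 (tetherin), which holds budding virions at the membrane, had 357 and 379 FPKM in PCDNA cells against 16.3 and 14.7 FPKM in ASO-NC.

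Interferon-stimulated genes are bound by a complex of STAT proteins and IRF9 at the interferon-stimulated response element, which holds paired GAAA repeats. A pair of GAAA letters with any 2 bases between them was searched for on both strands in RefSeq promoters of the GRCh38.p14 build, from 250 bases before to 50 bases after each gene's start. Of the 38 antiviral effectors with a promoter in the table, 25 (65.8%) held them, and of 14 MHC class I pathway genes 9 (64.3%) did, beside 996 of all 27305 promoters (3.65%) and 303 of the 10306 promoters of tested genes (2.94%). Antiviral effectors without an entry were IFIT2, MX2, OAS2, OASL, IFITM2, APOL1, APOL6 and TRIM22. Other lists held the letters less often. They were found in 6 of 12 genes associated with interferon gamma (50%) and 4 of 12 nucleic acid sensors (33.3%). Inflammatory cytokines and chemokines held them in 2 of 23 promoters (8.7%), and STATs and interferon regulatory factors in 0 of 6. Among the 124 genes with a promoter that were at least 2 log2 units higher in PCDNA in both replicates, a set chosen by its values, 50 (40.3%) held the letters, and among 197 that were at least 1 log2 unit lower, 3 (1.52%) did. Promoters of 4 genes described here are shown with the matched bases in capitals, because they carry the element at different distances and on either strand. A match describes these letters and is not evidence of binding.
IFIT1 (chr10:89392373-89392672, plus strand): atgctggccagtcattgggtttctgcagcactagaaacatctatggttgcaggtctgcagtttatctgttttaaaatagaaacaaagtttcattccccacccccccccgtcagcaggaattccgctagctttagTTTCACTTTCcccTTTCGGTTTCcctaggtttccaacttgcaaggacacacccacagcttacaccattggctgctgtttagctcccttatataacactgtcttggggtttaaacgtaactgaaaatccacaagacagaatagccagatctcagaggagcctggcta
ISG15 (chr1:1013247-1013546, plus strand): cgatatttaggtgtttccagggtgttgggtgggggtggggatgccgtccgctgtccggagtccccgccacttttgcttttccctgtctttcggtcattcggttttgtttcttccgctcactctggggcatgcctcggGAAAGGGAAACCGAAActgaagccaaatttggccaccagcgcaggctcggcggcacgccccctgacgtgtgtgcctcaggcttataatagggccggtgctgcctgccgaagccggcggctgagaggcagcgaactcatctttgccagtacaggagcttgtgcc
MX1 (chr21:41420308-41420607, plus strand): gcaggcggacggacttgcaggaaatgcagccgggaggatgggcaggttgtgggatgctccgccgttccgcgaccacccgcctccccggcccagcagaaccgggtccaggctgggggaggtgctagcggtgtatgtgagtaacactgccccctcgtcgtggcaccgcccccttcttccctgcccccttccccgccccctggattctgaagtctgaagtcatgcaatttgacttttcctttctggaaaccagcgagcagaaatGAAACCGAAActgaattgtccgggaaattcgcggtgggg
CXCL10 (chr4:76023448-76023747, minus strand): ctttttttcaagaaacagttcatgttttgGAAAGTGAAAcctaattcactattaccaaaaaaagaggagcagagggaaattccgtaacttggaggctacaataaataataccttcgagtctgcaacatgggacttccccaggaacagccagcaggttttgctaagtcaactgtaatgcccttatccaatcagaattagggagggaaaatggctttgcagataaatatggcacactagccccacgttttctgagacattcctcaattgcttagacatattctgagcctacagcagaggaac
In IFIT1 the matches begin 116 and 103 bases before the start on the opposite strand, where they read as TTTC repeats. In ISG15 a pair of overlapping matches begins 113 and 107 bases before the start. The match of MX1 begins at base 12 after the start, and that of CXCL10 lies 221 bases before it.

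Upstream of these effectors, the ligand list held 9 interferon genes, of which 2 passed the filter on low values. IFNB1, encoding interferon beta, had 7.27 and 5.76 FPKM in PCDNA cells against 0.559 and 0.736 FPKM in ASO-NC (log2 difference 2.18 ± 0.21 SE, limma adjusted p = 0.00693). The other tested ligand, IFNE, did not pass. IFNL1, a type III interferon, fell below the filter but was listed at 1.61 and 0.707 FPKM in PCDNA cells, against 0.126 and 0 FPKM in ASO-NC. Interferon receptor chains and Janus kinases had a median difference of 0.219, and 6 of 8 tested members were higher in both replicates. The share of all genes higher in both was 37%. The number that passed fell without either PCDNA library. In the main fit 2 members were higher in PCDNA, beside 7.83% of all genes. These were IFNAR2, a chain of the type I receptor, at 12 and 12 FPKM in PCDNA versus 6.8 and 5.79 FPKM in ASO-NC, and JAK2, the kinase of several cytokine receptors, at 4.85 and 3.99 FPKM in PCDNA versus 0.993 and 1.13 FPKM in ASO-NC. IFNAR1, the other chain of the type I receptor, had 16.6 and 20.5 FPKM in PCDNA cells against 27.5 and 17.6 FPKM in ASO-NC, so its groups overlapped and it did not pass. JAK1 likewise did not pass, at 51 and 50 FPKM in PCDNA cells against 40.3 and 47.8 FPKM in ASO-NC.

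Of 8 tested STATs and interferon regulatory factors, 5 were higher in PCDNA and none lower, beside 7.83% and 4.64% of all genes. The count fell without either PCDNA library. IRF7, which amplifies interferon transcription, had 131 and 103 FPKM in PCDNA cells against 8.93 and 9.76 FPKM in ASO-NC (log2 difference 3.50 ± 0.19 SE, limma adjusted p = 0.0016). STAT2, IRF1 and IRF2 also passed, with differences of 1.63, 1.58 and 1.24. The DNA-binding partner IRF9 had 59.6 and 67.3 FPKM in PCDNA cells against 55.9 and 29.6 FPKM in ASO-NC. The ASO-NC replicates of IRF9 differed from each other by more than the group means did, and the gene did not pass (limma adjusted p = 0.25).

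Sensors of foreign nucleic acid were higher in PCDNA for 11 of 14 tested members, beside 7.83% of all genes, with a median of 2.17. That count also fell without either PCDNA library. DDX58, encoding RIG-I, which recognises RNA ends that lack a host cap, had 141 and 151 FPKM in PCDNA cells against 4.02 and 5.78 FPKM in ASO-NC. IFIH1, encoding the long double-stranded RNA sensor MDA5, had 115 and 107 FPKM in PCDNA cells against 3.45 and 4.17 FPKM in ASO-NC. TLR3, an endosomal receptor for double-stranded RNA, had 32.9 and 31.5 FPKM in PCDNA and was close to absent in ASO-NC, at 0.063 and 0.176 FPKM. The filter therefore kept TLR3 through its PCDNA values. DHX58, a relative of RIG-I, and EIF2AK2, the kinase PKR, had differences of 1.84 and 2.18. Among genes of DNA sensing, CGAS, the enzyme that detects cytosolic DNA, had 7.71 and 8.68 FPKM in PCDNA cells against 2.62 and 2.84 FPKM in ASO-NC, a difference of 1.30. STING1, its adaptor, had 152 and 136 FPKM in PCDNA cells against 29.8 and 31.9 FPKM in ASO-NC, a difference of 2.19. TREX1, the exonuclease that removes cytosolic DNA, had 36.8 and 35.5 FPKM in PCDNA cells against 3.29 and 5.4 FPKM in ASO-NC. The adaptor genes MAVS and TICAM1 and the kinase gene IKBKE did not pass, and the kinase gene TBK1 passed by a small margin at 18.1 and 18.4 FPKM in PCDNA versus 8.9 and 11.3 FPKM in ASO-NC (limma adjusted p = 0.0498).

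In a list of feedback regulators 4 of 6 tested members were higher as well, beside 7.83% of all genes. The 4 were USP18, SOCS1, TRIM21, which also counts among the effectors, and UBA7, which acts in the ISG15 pathway and is not an inhibitor. USP18, which removes ISG15 from proteins and blocks the type I receptor, had 91.2 and 89 FPKM in PCDNA cells against 4.51 and 4.1 FPKM in ASO-NC, and UBA7, the enzyme that activates ISG15, had 62.4 and 44.1 FPKM in PCDNA versus 1.69 and 1.76 FPKM in ASO-NC. SOCS1, an inhibitor of Janus kinases, had 12.8 and 9.45 FPKM in PCDNA cells against 2.41 and 4.46 FPKM in ASO-NC. The groups did not overlap for any of these, beside 33.6% of all genes whose PCDNA libraries both lay above both ASO-NC libraries. SOCS3 and PIAS1 did not pass.

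**Figure D2:**
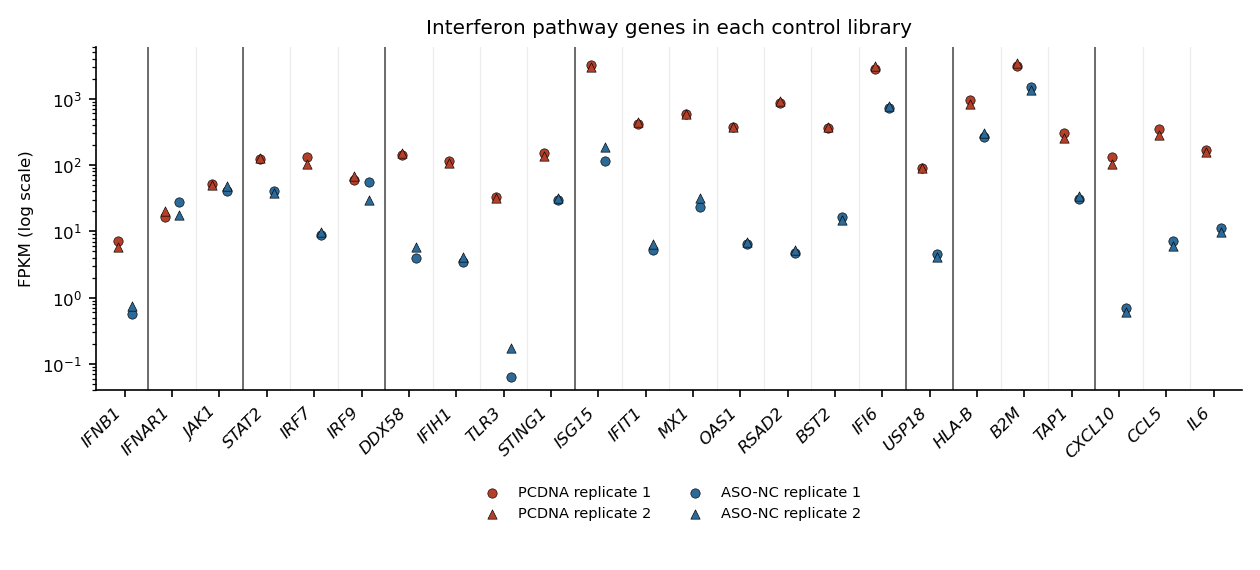
FPKM of 24 interferon pathway and related genes on a log axis in the 4 control libraries, with circles for replicate 1 and triangles for replicate 2; vertical lines separate ligand, receptor and kinase, signalling factors, sensors, effectors, feedback, MHC class I and cytokine genes. PCDNA lies above ASO-NC for the sensors and effectors, by the widest gaps for RSAD2, CXCL10 and TLR3, whereas the groups overlap for IFNAR1 and lie close together for JAK1.

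The MHC class I pathway, which shows peptides from inside the cell to T cells, was higher in PCDNA for 15 of 17 tested genes. Beside this stands 7.83% of all genes, and the list's median was 1.71. The count was 7 without either PCDNA library. B2M, the light chain of the class I molecule, had 3074 and 3410 FPKM in PCDNA cells against 1501 and 1332 FPKM in ASO-NC. The heavy chain gene HLA-B had 947 and 842 FPKM in PCDNA cells against 264 and 302 FPKM in ASO-NC, but HLA genes are so alike that reads may be split between them. The gene for the peptide transporter TAP1 had 305 and 256 FPKM in PCDNA cells against 30.9 and 33.6 FPKM in ASO-NC (log2 difference 3.08 ± 0.18 SE, limma adjusted p = 0.00168). The largest difference of the list was that of PSMB9, an immunoproteasome subunit, at 76.5 and 70.8 FPKM in PCDNA cells against 4.54 and 1.41 FPKM in ASO-NC. TAPBP, which helps load peptides, did not pass.

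Genes usually associated with interferon gamma were higher for 10 of 12 tested members of a list of 17, beside 7.83% of all genes. The list's median was 3.35, or 3.2 in replicate 1 and 3.5 in replicate 2. The filter takes the mean over the same 4 libraries, so genes high in PCDNA alone were kept. The other 5 members fell below it, and the count depends on it in part. CXCL10, a chemokine that attracts activated T cells, had 131 and 102 FPKM in PCDNA cells against 0.707 and 0.611 FPKM in ASO-NC, and CXCL11, a ligand of the same receptor, had 136 and 116 FPKM in PCDNA versus 1.03 and 0.569 FPKM in ASO-NC. IDO1, which degrades tryptophan, had 92.9 and 72.8 FPKM in PCDNA cells against 0.147 and 0.303 FPKM in ASO-NC. All 3 were well expressed in PCDNA and under or near 1 FPKM in ASO-NC, so the filter kept them through their PCDNA values. The immune checkpoint ligand gene CD274 had 34 and 36.2 FPKM in PCDNA cells against 6.57 and 6.44 FPKM in ASO-NC. The class II molecule gene HLA-DRA stayed near 0 in both groups, at 0.0648 and 0.147 FPKM in PCDNA and 0.01 and 0 FPKM in ASO-NC, and its master regulator CIITA was below the filter.

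Inflammatory cytokines and chemokines were higher in PCDNA for 14 of 22 tested members of a list of 33, with a median of 1.5, and the count was 9 without either PCDNA library. CCL5, a chemokine for T cells and monocytes, had 343 and 284 FPKM in PCDNA cells against 7.09 and 5.98 FPKM in ASO-NC (log2 difference 5.38 ± 0.19 SE, limma adjusted p = 0.000582). IL6, a main cytokine of fibroblasts, had 169 and 155 FPKM in PCDNA cells against 11.1 and 9.66 FPKM in ASO-NC. CXCL8, which attracts neutrophils, had 198 and 199 FPKM in PCDNA cells against 27.4 and 26.9 FPKM in ASO-NC. TNFSF10 (TRAIL), a death receptor ligand that interferon induces, had 26.8 and 30.1 FPKM in PCDNA cells against 0.238 and 0.218 FPKM in ASO-NC. The filter kept TNFSF10 through its PCDNA values. Not every inflammatory gene followed: IL1A, LIF, IL11, IL32, CXCL1, CXCL2, CXCL3 and CCL26 did not pass, and TNF was below the filter. Of 14 tested NF-kB subunits and feedback inhibitors, 3 were higher in PCDNA, and the count was 1 without either PCDNA library. They were NFKBIA, at 74.4 and 68.7 FPKM in PCDNA versus 25.4 and 30.2 FPKM in ASO-NC, NFKBIZ, at 70.8 and 63.2 FPKM in PCDNA versus 19.3 and 17.3 FPKM in ASO-NC, and BIRC3, at 9.43 and 10.1 FPKM in PCDNA versus 1.45 and 2.04 FPKM in ASO-NC. None of the subunit genes NFKB1, NFKB2, RELA and RELB passed. The counts of this paragraph stand beside 7.83% of all genes called higher. Among complement genes 4 of 13 were higher, with a count of 3 without either PCDNA library. CFB, the alternative pathway protease, had 35.8 and 29.1 FPKM in PCDNA cells against 2.24 and 2.59 FPKM in ASO-NC, and C1R, a protease of the classical pathway, had 214 and 201 FPKM in PCDNA versus 40.9 and 27.4 FPKM in ASO-NC.

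Since immune cells express many of these genes, their markers are given beside them. Of 14 immune cell markers, 2 passed the filter on low values, and CD68 was higher at 315 and 284 FPKM in PCDNA versus 77.7 and 65.1 FPKM in ASO-NC. CD68 is a lysosomal protein of macrophages that fibroblasts also express. It made up nearly all of the summed marker level, which was 317.6 and 287.9 FPKM in PCDNA and 82.98 and 68.87 FPKM in ASO-NC. The leukocyte marker PTPRC was listed at 0.013 and 0.0627 FPKM in PCDNA and at 0.237 and 0 FPKM in ASO-NC, and CD3E, MS4A1, LYZ and TYROBP were below 0.1 FPKM in all 4 libraries. Of 16 fibroblast markers, all were tested, 1 was higher (PRRX1) and 1 lower (COL1A1), and the median difference was 0.0818. Both shares are close to the 7.83% and 4.64% of all genes called higher and lower. VIM, the intermediate filament of mesenchymal cells, had 2402 and 2391 FPKM in PCDNA cells against 1205 and 2283 FPKM in ASO-NC, and LUM, a matrix proteoglycan, had 838 and 783 FPKM in PCDNA versus 211 and 667 FPKM in ASO-NC, so ASO-NC replicate 1 was low for both and neither passed. Of 11 keratinocyte and epithelial markers 5 were tested and none passed, and KRT5, KRT1 and TP63 were below 0.1 FPKM in all 4 libraries. The summed level of that list, carried by KRT18 and DSP, was 142.3 and 140.3 FPKM in PCDNA and 163.4 and 129.2 FPKM in ASO-NC. Of 7 melanocyte markers 2 were tested and none passed, and all 7 endothelial markers fell below the filter.

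Cell cycle genes were the other large block that was higher in PCDNA. Of 57 tested G2/M and mitosis genes, 43 were higher and none lower, beside 7.83% and 4.64% of all genes. Their median was 1.33, and 55 were higher in both replicates, beside 37% of all genes. The list's median was 1.2 in replicate 1 and 1.49 in replicate 2. The number of members that passed fell without either PCDNA library and rose without either ASO-NC library, as it did for all genes. MKI67, the marker of cycling cells, had 7.68 and 7.32 FPKM in PCDNA cells against 1.04 and 1.39 FPKM in ASO-NC (log2 difference 1.94 ± 0.19 SE, limma adjusted p = 0.00693). CDK1, the kinase that drives mitosis, had 11.6 and 14.7 FPKM in PCDNA cells against 2.19 and 2.97 FPKM in ASO-NC. CCNB1, its cyclin partner, had 27.4 and 33.2 FPKM in PCDNA cells against 13.7 and 8.97 FPKM in ASO-NC. The groups did not overlap for these 3 genes, and all 3 were expressed in both. Both PCDNA libraries lay above both ASO-NC libraries for 33.6% of all genes. BUB1, a spindle checkpoint kinase, had 9.6 and 10.5 FPKM in PCDNA cells against 1.28 and 1.84 FPKM in ASO-NC, among the largest differences of the list at 2.12. FOXM1, a transcription factor for G2/M genes, had 21.2 and 18.4 FPKM in PCDNA cells against 4.17 and 5.79 FPKM in ASO-NC, and MYBL2, which acts with it, had 9.26 and 8.26 FPKM in PCDNA versus 1.53 and 0.995 FPKM in ASO-NC.

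Promoters of G2/M genes are known for a cell cycle homology region of the letters TTTGAA, bound by the DREAM and MuvB complexes, together with CCAAT boxes bound by NF-Y. Of the 49 G2/M genes with a RefSeq promoter, 35 (71.4%) held TTTGAA on either strand and 39 (79.6%) held CCAAT. The shares were 15.4% and 35.7% of all 27305 promoters, and 9.73% and 36.9% of the 10306 promoters of tested genes. Of 41 promoters of G1/S and replication genes, 1 (2.44%) held TTTGAA and 22 (53.7%) held CCAAT. Members without an entry were AURKA, BUB3, TTK, BIRC5, TPX2, UBE2C, FOXM1 and KNL1. The promoters of CDK1 and CCNB2 are shown with both kinds of match in capitals, as examples with 1 and with 4 CCAAT boxes.
CDK1 (chr10:60778081-60778380, plus strand): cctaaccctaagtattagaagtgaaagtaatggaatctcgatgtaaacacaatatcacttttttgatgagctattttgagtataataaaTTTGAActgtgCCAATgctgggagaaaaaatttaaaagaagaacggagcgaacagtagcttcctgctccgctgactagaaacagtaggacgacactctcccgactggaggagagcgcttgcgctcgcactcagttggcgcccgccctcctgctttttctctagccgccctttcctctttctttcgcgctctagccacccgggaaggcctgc
CCNB2 (chr15:59104896-59105195, plus strand): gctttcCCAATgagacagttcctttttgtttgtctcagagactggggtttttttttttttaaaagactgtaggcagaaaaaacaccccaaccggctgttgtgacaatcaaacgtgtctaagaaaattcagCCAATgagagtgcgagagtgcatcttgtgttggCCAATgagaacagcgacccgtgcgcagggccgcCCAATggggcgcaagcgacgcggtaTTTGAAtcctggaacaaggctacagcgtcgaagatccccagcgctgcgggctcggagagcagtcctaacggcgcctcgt
CDK1 has the letters TTTGAA 161 bases before its start, followed by a CCAAT box at 150 bases. CCNB2 has TTTGAA at 29 bases before its start, preceded by CCAAT boxes that begin 54, 87, 120 and 244 bases before it. CCNB2 itself had 9.57 and 10.3 FPKM in PCDNA cells against 3.92 and 3.11 FPKM in ASO-NC.

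G1/S and DNA replication genes differed by less. Of 48 tested members 16 were higher in PCDNA and none lower, beside 7.83% and 4.64% of all genes. The list's median was 0.69, and the count fell without either PCDNA library. RRM2, the ribonucleotide reductase subunit that limits nucleotide supply, had 36.4 and 48.2 FPKM in PCDNA cells against 9.63 and 8.19 FPKM in ASO-NC. TK1, thymidine kinase, had 47 and 42.9 FPKM in PCDNA cells against 9.68 and 9.64 FPKM in ASO-NC. E2F1, which activates these genes, had 10.4 and 9.42 FPKM in PCDNA cells against 4.73 and 4.37 FPKM in ASO-NC. Other members sat close together in the groups: CCND1, the growth-factor-responsive cyclin, had 803 and 783 FPKM in PCDNA cells against 820 and 915 FPKM in ASO-NC, and PCNA, the sliding clamp of DNA polymerase, had 61.2 and 58.4 FPKM in PCDNA versus 40 and 49 FPKM in ASO-NC. Neither passed.

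Inhibitors of cyclin-dependent kinases did not move in 1 direction. CDKN1A (p21), a p53 target that halts the cycle, was lower at 403 and 406 FPKM in PCDNA versus 678 and 670 FPKM in ASO-NC (log2 difference -0.74 ± 0.15 SE, limma adjusted p = 0.0386). CDKN2B (p15) was lower as well, at 3.88 and 3.12 FPKM in PCDNA cells against 12.5 and 8.87 FPKM in ASO-NC, and so was CDKN1C (p57), at 0.317 and 0.15 FPKM in PCDNA versus 4.44 and 2.07 FPKM in ASO-NC. CDKN2C (p18) was higher, at 14.4 and 12.4 FPKM in PCDNA cells against 3.44 and 2.52 FPKM in ASO-NC, and CDKN2D (p19) had 10.9 and 11.6 FPKM in PCDNA versus 6.07 and 3.67 FPKM in ASO-NC. CDKN2A, which encodes p16, had 10.1 and 10.5 FPKM in PCDNA cells against 16.9 and 10.7 FPKM in ASO-NC and did not pass. Of 11 lamin and HMG genes 3 were higher, beside 7.83% of all genes. LMNB1, the B-type lamin that declines in senescent fibroblasts, had 5.49 and 5.35 FPKM in PCDNA cells against 1.04 and 1.39 FPKM in ASO-NC, and the chromatin proteins HMGB2 and HMGN2 were the other members. Without PCDNA replicate 1 no gene of these 2 lists passed, and without PCDNA replicate 2 the count was 1 among the inhibitors, a higher gene, and 0 among lamins and HMG genes.

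Of 36 tested p53 targets 9 were lower in PCDNA, beside 4.64% of all genes, and 2 were higher. GDF15, a stress cytokine, had 237 and 241 FPKM in PCDNA cells against 407 and 385 FPKM in ASO-NC, TP53I3, an oxidoreductase, had 24.6 and 25.6 FPKM in PCDNA versus 71.9 and 51.5 FPKM in ASO-NC, and ZMAT3, an RNA-binding protein, had 9.96 and 10.2 FPKM in PCDNA versus 30.3 and 26.8 FPKM in ASO-NC. PMAIP1 (NOXA), which interferon regulatory factors also induce, went the other way with a far larger gap, at 392 and 383 FPKM in PCDNA cells against 23 and 21.5 FPKM in ASO-NC, and KITLG was the other member that was higher. MDM2, the ubiquitin ligase for p53, had 35.7 and 54.2 FPKM in PCDNA cells against 55.6 and 46.2 FPKM in ASO-NC and did not pass. The median of the list was -0.21, or -0.512 in replicate 1 and -0.142 in replicate 2, no member was lower by the test without either PCDNA library, and 25 of the 36 did not pass. PURPL itself had 5.42 and 5.73 FPKM in PCDNA cells against 16.2 and 9.74 FPKM in ASO-NC. Both PCDNA libraries lay below both ASO-NC libraries, as for 29.4% of all genes, and PURPL did not pass (limma adjusted p = 0.0611).

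**Figure D3:**
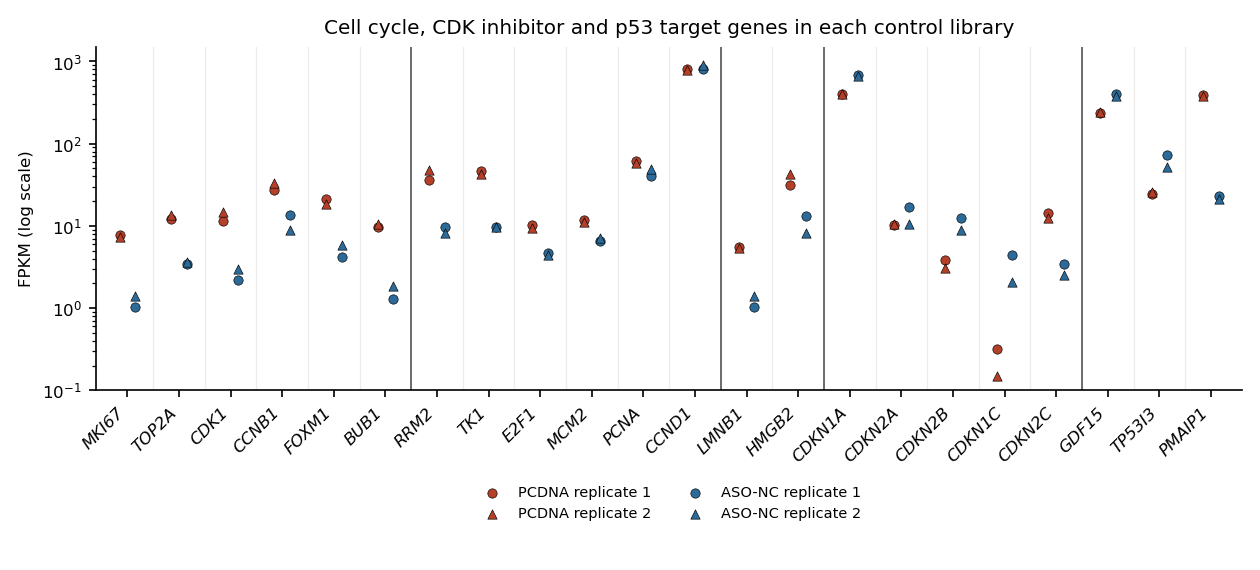
FPKM of 22 genes on a log axis in the 4 control libraries, with circles for replicate 1 and triangles for replicate 2; vertical lines separate mitosis, G1/S, lamin and HMG, CDK inhibitor and p53 target genes. Mitosis genes lie higher in PCDNA, CDKN1A, CDKN2B and CDKN1C lie lower, and CCND1 is nearly level.

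Lower genes were scattered more thinly over the lists. Contractile cytoskeleton genes, which give myofibroblasts their tension, were lower for 5 of 19 tested members, beside 4.64% of all genes, and higher for none. Their median was -0.593, which was -0.326 in replicate 1 and -0.678 in replicate 2. TPM2, a tropomyosin, had 478 and 492 FPKM in PCDNA cells against 947 and 788 FPKM in ASO-NC, and CNN2, a calponin, had 48.2 and 41.5 FPKM in PCDNA versus 113 and 116 FPKM in ASO-NC. The myofibroblast marker ACTA2, at 33.7 and 26.5 FPKM in PCDNA cells against 45 and 55.6 FPKM in ASO-NC, did not pass. The count was 0 without either PCDNA library and 2 once the length and GC trend was removed.

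Of 22 tested collagens 5 were lower and 3 higher in PCDNA, beside 4.64% and 7.83% of all genes, with a median of -0.486. COL1A1, a chain of the main collagen of skin, had 554 and 540 FPKM in PCDNA cells against 925 and 989 FPKM in ASO-NC (log2 difference -0.80 ± 0.15 SE, limma adjusted p = 0.0322), while its partner chain gene COL1A2 had 945 and 916 FPKM in PCDNA versus 812 and 1056 FPKM in ASO-NC and did not pass. COL15A1, a collagen of basement membrane zones, was higher at 9.63 and 7.93 FPKM in PCDNA versus 1.63 and 2.46 FPKM in ASO-NC, with COL8A1 and COL11A1. The count of lower collagens was 0 without either PCDNA library and 0 once the length and GC trend was removed. Among 33 elastic fibre, proteoglycan and adhesive matrix genes 6 were lower and 3 higher, beside the same 4.64% and 7.83% of all genes. The count of lower genes fell without either PCDNA library, whereas that of higher genes did not change. POSTN (periostin), a matricellular protein of remodelling tissue, had 0.311 and 0.478 FPKM in PCDNA cells against 6.3 and 8.71 FPKM in ASO-NC, the largest lower difference of the list at -2.60. LTBP2, a microfibril protein, had 60.2 and 48.2 FPKM in PCDNA cells against 142 and 155 FPKM in ASO-NC. The small proteoglycan genes FMOD, at 13.7 and 13.2 FPKM in PCDNA cells against 0.987 and 1.05 FPKM in ASO-NC, and PRELP, at 8.02 and 6.43 FPKM in PCDNA versus 0.457 and 0.73 FPKM in ASO-NC, went the other way with the microfibril gene MFAP5. Of the 15 tested matrix metalloproteinases and their inhibitors, MMP12 was higher and MMP11 and MMP15 lower, beside 7.83% and 4.64% of all genes. The abundant collagenase gene MMP1, at 1752 and 1911 FPKM in PCDNA cells against 1027 and 1363 FPKM in ASO-NC, did not pass. Without either PCDNA library, no gene of that list passed.

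Cholesterol synthesis and uptake genes were lower for 7 of 25 tested members, beside 4.64% of all genes, and higher for none. Their median was -0.599, which was -0.614 in replicate 1 and -0.531 in replicate 2. MVD, which makes isopentenyl diphosphate, had 20.5 and 21.6 FPKM in PCDNA cells against 100 and 66.3 FPKM in ASO-NC (log2 difference -1.91 ± 0.24 SE, limma adjusted p = 0.0133). FDPS, the next prenyl synthase of the pathway, had 78.8 and 79.1 FPKM in PCDNA cells against 275 and 222 FPKM in ASO-NC, and ACAT2, which condenses acetyl-CoA at its start, had 17 and 17.1 FPKM in PCDNA versus 55.6 and 43.2 FPKM in ASO-NC. The PCDNA libraries lay below the ASO-NC libraries in each of these, as they did for 29.4% of all genes. The synthase gene HMGCS1, at 33 and 34.3 FPKM in PCDNA versus 45.9 and 40.4 FPKM in ASO-NC, did not pass. CH25H, which makes an antiviral hydroxylated cholesterol, was below the filter, at 2.1 and 1.14 FPKM in PCDNA cells against 0.407 and 0.339 FPKM in ASO-NC. The count was 0 without PCDNA replicate 1 or 2, 11 without ASO-NC replicate 1 and 16 without ASO-NC replicate 2.

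Ribosomal protein genes lay lower in PCDNA in both replicates for 40 of 45 members, beside 33.5% of all genes, but by small amounts, with a median of -0.479 (-0.644 in replicate 1 and -0.279 in replicate 2), and 4 passed: RPL3, RPL4, RPLP0 and RPS2. All 4 were lower, beside 4.64% of all genes called lower. RPL4 had 392 and 382 FPKM in PCDNA cells against 735 and 710 FPKM in ASO-NC. No member passed without either PCDNA library, whereas 12 passed without ASO-NC replicate 1 and 33 without ASO-NC replicate 2. Once the length and GC trend was removed, 1 passed. Among 34 nuclear genes of the respiratory chain 1 was lower (UQCRC1), and none of 15 mitochondrially encoded genes or of 24 heat shock and chaperone genes passed in either direction.

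**Figure D4:**
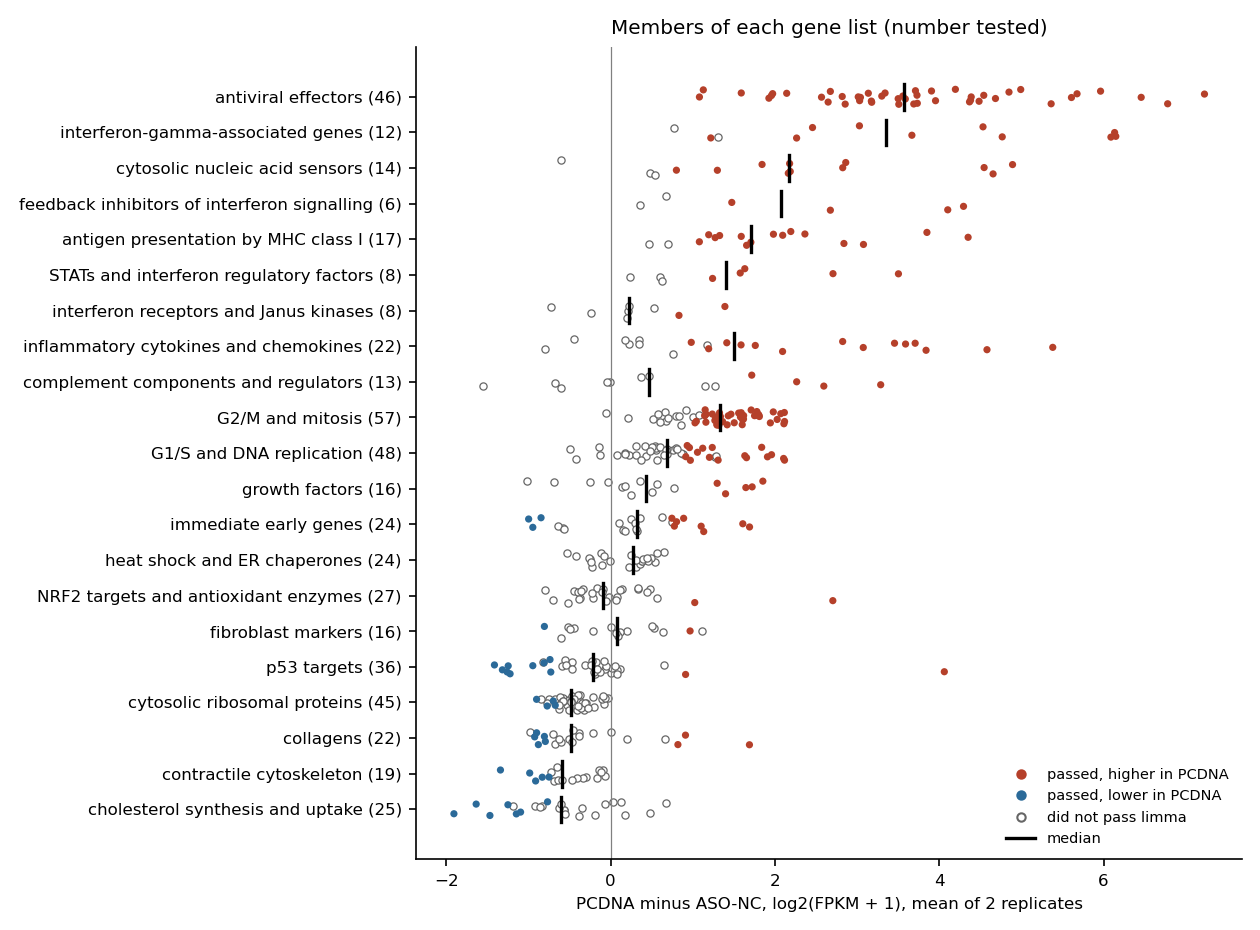
Each point is a tested member of a gene list, placed on the x axis by its PCDNA minus ASO-NC difference on the log2(FPKM + 1) scale (mean of the 2 replicates), with black bars for list medians and colour for members that passed limma. Antiviral effectors, at a median of 3.57, lie farthest to the right, interferon receptors and kinases sit near 0 at 0.219, and cholesterol genes, at -0.599, lie farthest to the left.

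Secreted factors and early-response genes held mixed calls. Of 16 tested growth factors 5 were higher in PCDNA and none lower, beside 7.83% and 4.64% of all genes. FGF2, a fibroblast mitogen, had 194 and 192 FPKM in PCDNA cells against 77.1 and 78.9 FPKM in ASO-NC. VEGFC, a lymphatic growth factor, had 308 and 269 FPKM in PCDNA versus 74.2 and 112 FPKM in ASO-NC, and FGF5, FGF7 and TGFA were the others. IGFBP6, which binds IGF2, had 805 and 841 FPKM in PCDNA cells against 188 and 104 FPKM in ASO-NC, and IGFBP3 had 102 and 82.1 FPKM in PCDNA versus 29.9 and 35.3 FPKM in ASO-NC. Among 24 immediate early genes 8 were higher and 3 lower, beside the same 7.83% and 4.64% of all genes. ATF3, a stress-induced repressor, had 47.5 and 48.3 FPKM in PCDNA cells against 21.1 and 10.6 FPKM in ASO-NC, and EGR2, a zinc finger factor, was lower at 4.42 and 4.56 FPKM in PCDNA versus 8.8 and 8.93 FPKM in ASO-NC. Without PCDNA replicate 1 or 2, no early-response gene passed in either direction. The count of growth factors was 1 without PCDNA replicate 1 and 0 without PCDNA replicate 2, as it was for IGF-binding proteins.

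Stress lists differed among themselves. SOD2, the mitochondrial superoxide dismutase that NF-kB induces, had 898 and 897 FPKM in PCDNA cells against 150 and 125 FPKM in ASO-NC (log2 difference 2.71 ± 0.17 SE, limma adjusted p = 0.00218), and HMOX1, heme oxygenase, had 247 and 209 FPKM in PCDNA versus 105 and 117 FPKM in ASO-NC. They were the calls among 27 NRF2 targets and antioxidant enzymes, a share close to the 7.83% of all genes called higher, and the count was 1 without either PCDNA library. NQO1, a standard NRF2 target, did not pass, at 189 and 192 FPKM in PCDNA cells against 215 and 226 FPKM in ASO-NC. Of 24 targets of ATF4 in the integrated stress response, 2 were higher (ATF5 and PPP1R15A) and 3 lower (TRIB3, SLC7A5 and CBS), and none passed without either PCDNA library. In that list 17 genes lay lower in PCDNA in both replicates, beside 33.5% of all genes, and the median was -0.467 (-0.548 in replicate 1 and -0.422 in replicate 2), with 8 lower calls after median centring. Its main calls stand beside 7.83% higher and 4.64% lower of all genes. Metallothioneins, small metal-binding proteins, had a median of -0.486 over 9 tested members and calls in both directions. MT1M had 38.6 and 27.8 FPKM in PCDNA cells against 6.08 and 2.39 FPKM in ASO-NC, whereas MT1G had 7.04 and 2.67 FPKM in PCDNA versus 47.8 and 41.5 FPKM in ASO-NC, and MT1H was lower too. Without PCDNA replicate 1 the counts were 0 higher and 1 lower. The abundant MT2A had 3826 and 4298 FPKM in PCDNA cells against 3641 and 3131 FPKM in ASO-NC and did not pass. Metallothionein genes are near-identical copies, so reads may be split between them. CTSS, a cysteine protease of antigen processing, was the larger of 2 calls among 28 lysosomal genes, at 163 and 142 FPKM in PCDNA cells against 9.59 and 14 FPKM in ASO-NC, beside SCARB2. That share is also close to the 7.83% of all genes, and the count was 1 without either PCDNA library.

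The 12 protein-coding genes with the largest higher differences in both replicates were RSAD2, IFIT2, OASL, PLAAT4, CXCL11, CXCL10, IDO1, IFIT1, IFIT3, OAS1, CCL5 and ISG20, and of these PLAAT4, a phospholipase-like enzyme, had 96.5 and 82.3 FPKM in PCDNA cells against listed values of 0.01 and 0.166 FPKM in ASO-NC. The 12 with the largest lower differences belonged to no list in common. SPP1 (osteopontin), a secreted phosphoprotein, had 14.1 and 13.5 FPKM in PCDNA cells against 139.9 and 85.7 FPKM in ASO-NC (log2 difference -2.90 ± 0.27 SE, limma adjusted p = 0.00647). NT5DC2 had 11 and 10.4 FPKM in PCDNA cells against 47.9 and 61.8 FPKM in ASO-NC, and SMYD3, a lysine methyltransferase, had 10.3 and 11.1 FPKM in PCDNA versus 46.6 and 52.7 FPKM in ASO-NC. The others were MT1G, TRIM55, POSTN, LAT2, VGF, ADSS1, BRICD5, NEFM and IQCN, most of which were under 1 FPKM in PCDNA. Of 584 tested long noncoding RNA genes 9.08% were lower and 3.08% higher, and of 277 pseudogenes 11.9% were lower and 2.53% higher, whereas of 228 transcribed pseudogenes 3.07% were lower and 3.95% higher, beside 3.86% lower and 8.66% higher of 11897 protein-coding genes. The median difference of long noncoding RNA genes was -0.513 in replicate 1 and -0.185 in replicate 2, and that of pseudogenes -0.441 and -0.261. Genes at 1 FPKM or more numbered 13514 and 13464 in the PCDNA libraries and 14457 and 13848 in the ASO-NC libraries. DANCR, a snoRNA host transcript, had 3.58 and 2.37 FPKM in PCDNA cells against 29 and 15.1 FPKM in ASO-NC, and PVT1 and MIR22HG were lower too.

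Several families of interferon-stimulated genes sit in clusters, and their neighbours were compared by RefSeq order on GRCh38.p14. On chromosome 10, IFIT2, IFIT3, IFIT1 and IFIT5 were all higher in PCDNA. Of the flanking genes, LIPA, which overlaps the cluster, was higher at 83.3 and 77.1 FPKM in PCDNA versus 20.2 and 24.3 FPKM in ASO-NC, whereas FAS, at 24.3 and 29 FPKM in PCDNA cells against 26 and 26.8 FPKM in ASO-NC, and PANK1 did not pass, and the mitotic kinesin gene KIF20B beyond them was higher. On chromosome 12, OAS1, OAS3 and OAS2 were higher and the neighbours RPL6 and PTPN11 did not pass. On chromosome 1, GBP3, GBP1, GBP4 and GBP5 were higher and GBP2 did not pass, and of the flanking genes GTF2B, a general transcription factor, was higher at 20.5 and 20.9 FPKM in PCDNA versus 8.83 and 11.9 FPKM in ASO-NC, whereas KYAT3 and RBMXL1 did not pass. On chromosome 4, CXCL10 and CXCL11 were higher, as was the flanking SCARB2, a lysosomal membrane protein gene, at 159 and 153 FPKM in PCDNA versus 65.4 and 63.7 FPKM in ASO-NC, whereas NAAA, SDAD1 and NUP54 did not pass. On chromosome 21, MX2 and MX1 were higher, MX2 at 144 and 137 FPKM in PCDNA cells against 5.87 and 4.37 FPKM in ASO-NC, and the neighbour BACE2, at 47.5 and 38.4 FPKM in PCDNA versus 28.7 and 33.6 FPKM in ASO-NC, did not pass.

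Of 6 genes often used to scale measurements none passed. GAPDH had 1571 and 1552 FPKM in PCDNA cells against 1307 and 1768 FPKM in ASO-NC, and PPIA had 1019 and 1187 FPKM in PCDNA versus 1048 and 1040 FPKM in ASO-NC, with overlapping groups; both were negative after median centring or quantile normalization. ACTB had 1444 and 1396 FPKM in PCDNA cells against 2080 and 2225 FPKM in ASO-NC, apart in both replicates but short of the threshold (limma adjusted p = 0.0534). HPRT1, at 15.5 and 17.7 FPKM in PCDNA versus 6.38 and 9.79 FPKM in ASO-NC, and YWHAZ, at 528 and 572 FPKM in PCDNA versus 358 and 365 FPKM in ASO-NC, were apart in the other direction (limma adjusted p = 0.0569 and 0.0644). TBP, at 9.72 and 9.42 FPKM in PCDNA versus 9.35 and 6.72 FPKM in ASO-NC, lay closer together.

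The same contrast between arms can be read in the treated libraries, OE-PURPL against ASO-PURPL, which share no library with the controls but differ in PURPL as well as in arm, so that arm and treatment cannot be told apart there. PURPL had 153 and 238 FPKM in OE-PURPL against 6.31 and 4.24 FPKM in ASO-PURPL. By limma, 949 genes (6.82%) were higher and 466 (3.35%) lower in OE-PURPL, and these counts ranged over 104 to 2357 and 13 to 2250 when any 1 library was left out. Of the 1089 genes higher in PCDNA, 724 (66.5%) were also higher in OE-PURPL, which is 76.3% of the 949 genes higher in OE-PURPL, and of the 646 lower genes 291 (45%) were also lower, which is 62.4% of the 466. RSAD2 had 967 and 1091 FPKM in OE-PURPL against 5.62 and 6.08 FPKM in ASO-PURPL, and MKI67 had 5.41 and 4.54 FPKM in OE-PURPL versus 0.984 and 1.67 FPKM in ASO-PURPL. Antiviral effectors were higher in 45 of 46 and G2/M genes in 33 of 57, with medians of 3.57 and 1.21. In a limma fit of all 8 libraries, the difference between the treated pair's and the control pair's differences passed for 2 of 13915 genes and had an unadjusted p under 0.05 for 531. The 2 genes were PURPL and a transcript listed under the clone name CH17-13I23.3, at 0.01 and 0 FPKM in PCDNA cells against 7.98 and 11.9 FPKM in ASO-NC, and at 24 and 12.5 FPKM in OE-PURPL against 0.01 and 0 FPKM in ASO-PURPL.

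**Figure D5:**
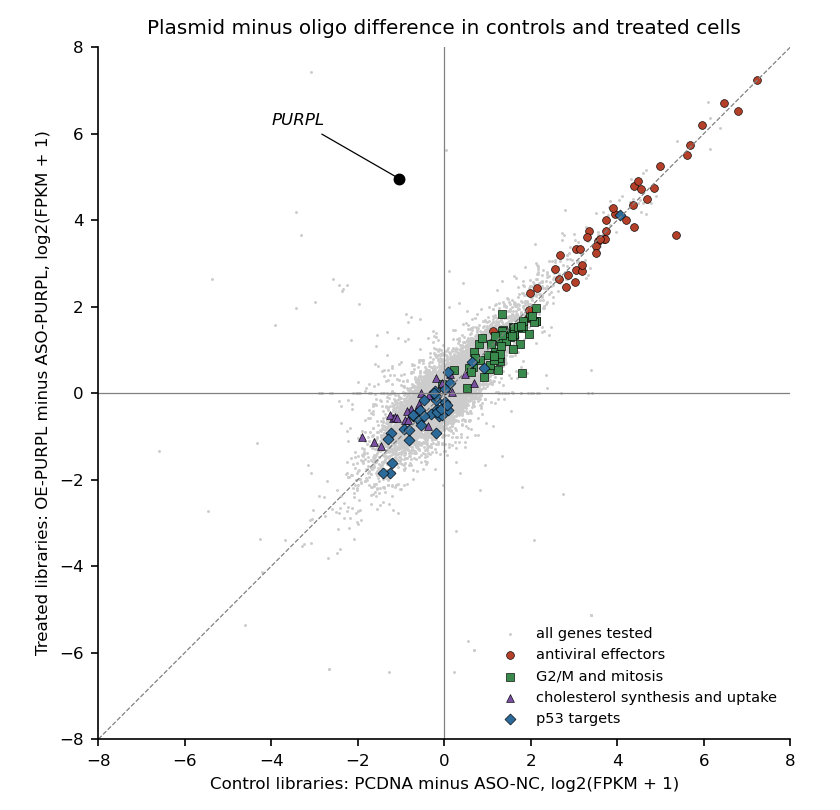
Each point is a gene, placed by its PCDNA minus ASO-NC difference in the control libraries (x axis) and its OE-PURPL minus ASO-PURPL difference in the treated libraries (y axis), both on the log2(FPKM + 1) scale, with the dashed line marking equal values. Antiviral effectors and G2/M genes lie along the dashed line in the upper right quadrant, whereas PURPL, at -1.05 on the x axis and 4.96 on the y axis, and CH17-13I23.3, farther left and a little lower, lie off it in the upper left quadrant.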

How the data were processed

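The 8 libraries were aligned and quantified by the submitters; STAR, Cufflinks and the hg38 build are named in the submitters' processing notes, and their versions are not given in the sources used here. Values deposited by the authors were taken as FPKM, which hold no read counts, so the sequencing depth behind each value is unknown. Undetected genes are listed at 0.01 in the replicate 1 tables and at 0 in the replicate 2 table.

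Groups follow the labels. Tables of 60635 rows were joined on gene name, repeated names (1264 rows per table) being reduced to the row with the highest mean and 1 gene with a cell that is not a number left out, which gave 59370 genes. Genes averaging 1 FPKM or more across the control libraries were kept, and the deposited FPKM were converted to log2(FPKM + 1). A gene high in 1 group alone can pass that filter, so counts of tested members depend on it in part. Two-sided limma tests (limma 3.58.1 in R 4.3.3, trended variance, residual df 2, prior df 3.24) were adjusted by Benjamini-Hochberg over all 13915 genes. Repeated names, overlapping genes and near-identical copies make single values uncertain. RefSeq names matched 13020 tested genes (93.6%).

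Members and gene lists were chosen with earlier results of these data known. Genes named by rule were preset panel genes whatever their values, the 12 protein-coding genes highest and the 12 lowest in PCDNA by the smaller of the 2 replicate differences among genes that passed, up to 4 members of each list with the largest difference in each direction, members against the direction of their list where these number 5 or fewer, and reference genes. Other members named were chosen after their values were seen. The removal of a length and GC trend and the test of the difference between arms were added after seeing the data. Alternatives were scaling, pseudocount, filter, trend, repeated names, the use of all 8 libraries, a replicate block and leaving out each library. Python 3.11.15, pandas 2.3.3 and matplotlib 3.10.9 were used. A few genes are not reported here.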

Additional observations from a re-analysis of the deposited data

Results flagged for a closer look

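For 5 of the genes named by rule, and for a transcript listed under the clone name CH17-13I23.3, all PCDNA libraries lay on one side of the ASO-NC libraries while all OE-PURPL libraries lay on the other side of the ASO-PURPL libraries. The value given is the treated pair's difference minus the control pair's difference on the log2(FPKM + 1) scale, from limma over 8 libraries. PURPL, the gene that was overexpressed or targeted, had 5.42 and 5.73 FPKM in PCDNA cells against 16.2 and 9.74 FPKM in ASO-NC, and 153 and 238 FPKM in OE-PURPL against 6.31 and 4.24 FPKM in ASO-PURPL, a difference of 6.0 that passed (limma adjusted p = 0.0159). CH17-13I23.3 had 0.01 and 0 FPKM in PCDNA cells against 7.98 and 11.9 FPKM in ASO-NC, and 24 and 12.5 FPKM in OE-PURPL against 0.01 and 0 FPKM in ASO-PURPL, a difference of 7.61 that passed as well (limma adjusted p = 0.00734). The other 4 did not pass. Separation of 2 libraries from 2 is common here. The PCDNA libraries both lay above the ASO-NC libraries for 33.6% of all genes and both below for 29.4%. How many of all genes had opposite order in the treated pair was not counted, so these 4 are given as values only. ARC, an activity-induced gene, had 2.85 and 2.31 FPKM in PCDNA cells against 6.32 and 5.93 FPKM in ASO-NC, and 4 and 3.27 FPKM in OE-PURPL against 1.65 and 2.02 FPKM in ASO-PURPL, a difference of 1.7 (limma adjusted p = 0.66). CDKN2A had 10.1 and 10.5 FPKM in PCDNA cells against 16.9 and 10.7 FPKM in ASO-NC, and 17.9 and 14.2 FPKM in OE-PURPL against 13.9 and 7.17 FPKM in ASO-PURPL, a difference of 0.98. NQO1 had 189 and 192 FPKM in PCDNA cells against 215 and 226 FPKM in ASO-NC, and 210 and 219 FPKM in OE-PURPL against 200 and 204 FPKM in ASO-PURPL, a difference of 0.29. NRG1, a growth factor, had 27.5 and 36.2 FPKM in PCDNA cells against 23.9 and 24.9 FPKM in ASO-NC, and 18.4 and 24.5 FPKM in OE-PURPL against 28 and 29.3 FPKM in ASO-PURPL, a difference of -0.77.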

How the results depend on the processing

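With 2 libraries a group, the counts depend on single libraries: leaving out each in turn gave 255 to 2290 genes higher and 62 to 2893 lower in PCDNA, the lone library being assumed to vary like the others, and 104 to 2357 higher and 13 to 2250 lower in OE-PURPL. No filter gave 1799 higher and 2156 lower of 59370 genes, a filter at 5 FPKM 356 lower, and median centring 1154 lower. Same-numbered libraries are not stated to be paired and their deviations correlated at -0.093; the replicate block gave 775 higher and 431 lower genes for the controls, and 412 and 202 for the treated libraries. By size, 181 genes were higher and 41 lower at a threshold of 2 log2 units, 339 and 93 with a pseudocount of 5, 692 lower with a pseudocount of 0.1, and 1114 and 691 in replicate 2 alone. Of 163 named genes that passed, 127 passed with the block, 70 and 68 without PCDNA replicate 1 and 2, and none changed sign.

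Genes that changed sign had not passed. Median centring gave -0.0302 for CCN2, -0.0126 for DCN, -0.0272 for EGR1, -0.0864 for GAPDH, -0.0528 for LOX and -0.0493 for PPIA. Quantile normalization gave -0.1347 for GAPDH, 0.0185 for MALAT1 and -0.0097 for PPIA. Removing the length and GC trend gave -0.1687 for DCN, 0.2209 for ELN and -0.1727 for LOX. Over the fits that leave out 1 library, ASNS ranged over -0.4543 to 0.3303, CCN2 -0.3086 to 0.4974, DCN -0.122 to 0.3461, EGR1 -0.0968 to 0.2916, ELN -0.4838 to 0.4405, GAPDH -0.1795 to 0.2558, IFNAR1 -0.5513 to 0.0695, LOX -0.1045 to 0.2482, MALAT1 -1.0282 to 1.0212, MDM2 -0.495 to 0.0936, NEAT1 -0.1399 to 2.0324, PPIA -0.0342 to 0.1848 and SESN1 -0.3939 to 0.0375. The cause was not tested. Unknown depth limits all low values.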
